A study of Coprinopsis cinerea with 4 samples.

Results

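Short orphan regions are intervals of under 600 bp, end minus start, that the deposited table of the mushroom Coprinopsis cinerea classes as orphans. Intervals within 100000 bp of a listed centromere, or of the outermost listed position of a chromosome, were left out. The rule gave 756 regions of the 3689 orphan regions and the 14514 genomic element rows in the table. Their length ran from 86 to 599 bp, with a median of 414 bp. RNA sequencing set hyphae beside oidia of strain okayama7#130, with 2 libraries of poly(A)-selected RNA for each stage. Hyphae are the filaments in which the fungus grows, and oidia are its single-celled asexual spores. Hyphal libraries were made with an NEBNext Ultra kit for Illumina and oidia libraries with a SOLiD Total RNA-seq kit, so stage and kit cannot be told apart in any result. Nothing in the labels says whether the 2 libraries of a stage came from separate cultures, and no treatment or mutation is given for either stage. In bulk RNA, less RNA per cell and fewer cells that carry a transcript cannot be told apart.

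Orphan genes are genes for which no relative is recognised outside a species or a narrow group of species. They tend to be short, and some are young genes that arose from sequence that did not code for protein. Gene predictions of this kind also include open reading frames that are never made into protein. Class names follow the table, and the method behind them is not described in the labels or file headers. No product names or functions were available for any of the 756 regions, so none is given, and the stages could not be checked against marker genes.

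The intervals follow gene models closely. In the RefSeq annotation of assembly CC3, exactly 1 gene model contained the interval for 751 regions, 3 regions lay within 2 models and 2 within none. For 662 regions the model extended 3 bases past the interval at 1 end only, the length of a stop codon. The other 89 regions had a model longer than that. Regions with a model longer by more than a stop codon made up 11.8% of the short orphan regions. Their share was 17.7% of the 1805 orphan regions of 600 bp to under 2 kb and 16.1% of the 640 of 2 kb or more. It was 40.3% of the 298 orthologous and 16.1% of the 342 paralogous regions under 600 bp. None of the 756 intervals overlapped another orphan, orthologous or paralogous interval, 7 overlapped a repeat or transposon row, and 15 met more than 1 gene model. Regions are named below by the locus identifier of the model that contains them, with the table's coordinates. No label or header names the genome build behind these.

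Hyphae replicates 1 and 2 had 4586306 and 3546635 reads in gene rows, and oidia replicates 1 and 2 had 7519091 and 6128727. Library sizes were scaled by TMM, a method that sets aside genes with extreme ratios. The scaled sizes were 7863179 and 6046718 for hyphae and 4431984 and 3557125 for oidia, so on this scale the hyphae libraries were the larger ones. The median log2 fold change of all element rows tested depended on the scaling: TMM gave 0.12, DESeq2 size factors gave 0.04, upper quartiles 0.42 and total counts 1.79. Every direction below is relative to that choice. Levels are given as CPM, the read count per unit of scaled library size, and between regions as CPM per kb of interval.

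Most short orphan regions had a read in hyphae, and fewer had one in oidia. At least 1 read was found for 681 regions (90.1%) in hyphae and for 487 (64.4%) in oidia. Both stages had reads in 472 regions, hyphae alone in 209, oidia alone in 15, and 60 regions had no read in any library. With 10 or more reads over the stage the counts were 370 in hyphae and 300 in oidia. Within the members, detection in hyphae was lowest for the shortest intervals, at 84.5% of 194 regions under 300 bp. It was 91.6% of 261 regions at 300 to 449 bp and 92.4% of 301 at 450 to 599 bp. In oidia the shares of these bins were 62.4%, 62.5% and 67.4%, so the shorter bins were alike there. Among orphan regions of 2 kb or more the shares were 99.7% in hyphae and 93.6% in oidia. Length alone does not order the classes, since orthologous regions under 600 bp had a read in 99.7% of cases in hyphae and 96.0% in oidia, and the 342 paralogous regions under 600 bp in 80.4% and 45.9%. Per the notes deposited with the table, a count is the number of reads overlapping the feature, so shares of detected regions are not corrected for length.

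**Figure D1:**
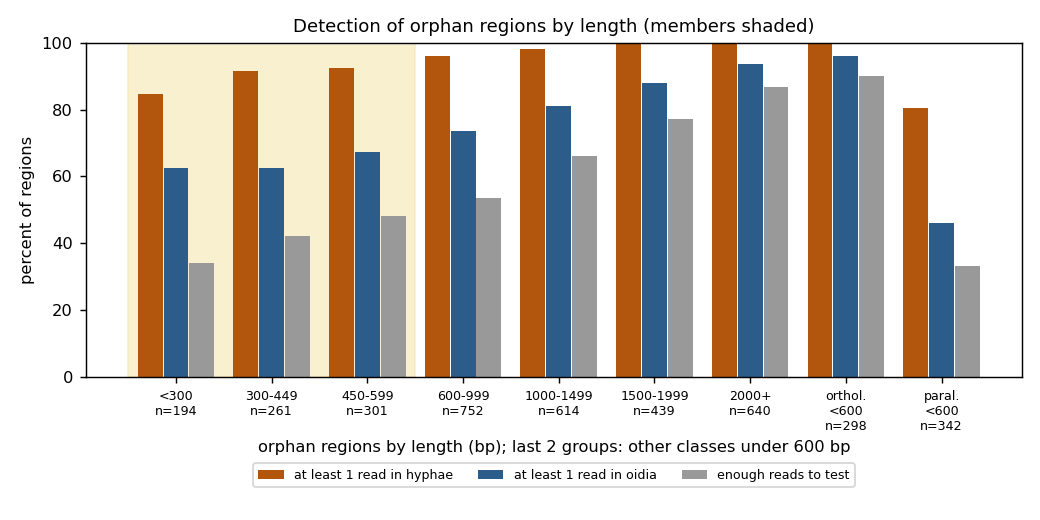
Percent of regions with at least 1 read in hyphae, with at least 1 read in oidia, and with enough reads to be tested (vertical axis, percent), for orphan regions in length bins in bp and for orthologous and paralogous regions under 600 bp; n is the number of regions past the distance rule. The members (shaded) had a read in 84.5% to 92.4% of regions in hyphae and 62.4% to 67.4% in oidia.

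Many regions without an oidia read had only a few hyphal reads. In the 264 of them too sparse to test, which include the 60 with no read at all, the read density was 5.96 per kb in hyphae replicate 1 and 4.05 per kb in hyphae replicate 2, and the median region had 2 hyphal reads. Repeat and centromere rows that also lacked oidia reads (790 rows) had densities of 0.847 and 0.358 per kb in those libraries. Both sets were picked for having no oidia read, and element rows ran up to 80000 bp. With no oidia read, a long row has a tighter limit on its oidia density than a short one. The rows were thus picked unlike the members, so these hyphal densities were not taken as a background level for the members. A region with no read in a stage could still have had a level of up to 0.216 CPM in hyphae or 0.376 CPM in oidia, which is 3 reads in that stage. The part of background reads in regions seen in hyphae alone was not tested.

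Per length, the typical short orphan region was low in both stages. Hyphae replicates 1 and 2 had a median level of 1.76 and 1.60 CPM per kb, and oidia replicates 1 and 2 had 0.929 and 1.16 CPM per kb. Orphan regions of 600 bp to under 2 kb had medians of 3.07 and 2.95 CPM per kb in hyphae and 2.01 and 1.95 in oidia. Orthologous regions under 600 bp stood far above both, at 38.3 and 39.1 CPM per kb in hyphae and 22.4 and 20.1 in oidia. The upper tail was different in hyphae: the level exceeded by 1 region in 10 was 73.9 and 75.4 CPM per kb for short orphan regions and 44.3 and 43.9 for orphan regions of 600 bp to under 2 kb. In oidia these values were 63.4 and 63.0 against 64.9 and 63.9 CPM per kb. Paralogous regions under 600 bp had a like upper tail in hyphae, at 74.1 and 73.0 CPM per kb, and 80.6 and 86.3 in oidia. Their medians were below those of the members, at 0.660 and 0.410 CPM per kb in hyphae and 0 in each oidia library. The lists were described, not tested, since regions are not replicates of a stage.

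**Figure D2:**
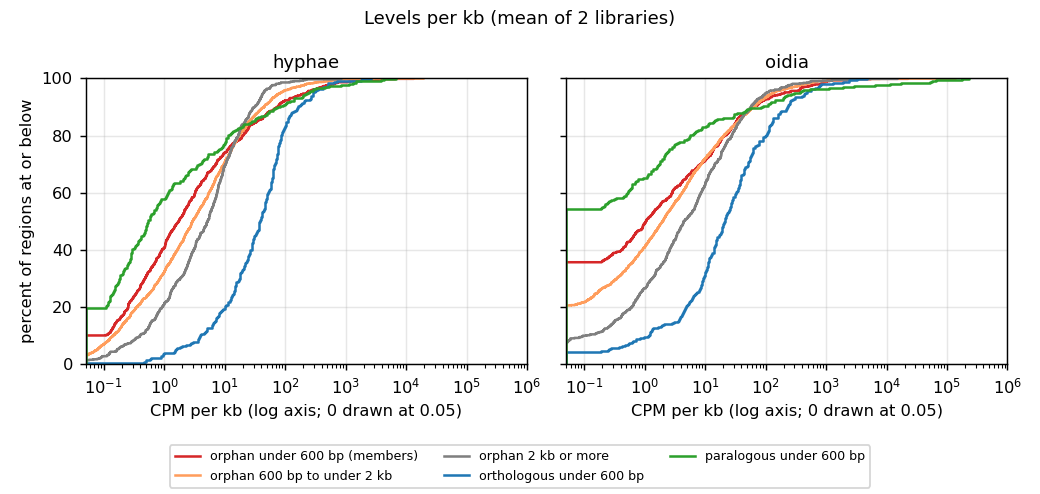
Cumulative percent of regions (vertical axis) at or below a level in CPM per kb (log axis, mean of 2 libraries) in hyphae (left) and oidia (right), for the members and for 4 lists set beside them. The members lie left of the orthologous regions under 600 bp in both stages, where library medians were 38.3 and 39.1 CPM per kb in hyphae and 22.4 and 20.1 in oidia.

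The 89 regions with a longer gene model were the better read ones. They had a median of 37.3 and 33.8 CPM per kb in hyphae and 28.8 and 26.5 in oidia, and the 662 with only a stop codon beyond the interval had 1.31 and 1.20 in hyphae and 0.617 and 0.793 in oidia. A read was found for 87 of the 89 in hyphae and 80 in oidia.

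Reads in short orphan regions were concentrated in few of them. The 10 most read members took 62.7% and 63.1% of all member reads in hyphae, and 55.5% and 55.8% of those in oidia. Both hyphae libraries had the same 10 members at the top, as did both oidia libraries, and 4 members were in the top 10 of every library. Members took 3.48% and 3.39% of the reads of all orphan, orthologous and paralogous regions in hyphae, and 1.03% and 0.984% in oidia. These shares rest on unscaled totals, in which oidia reads weigh differently from the TMM scale. On that scale the summed level of all members was 22531 and 23168 CPM in hyphae and 19365 and 18958 CPM in oidia, a much smaller gap. The shares of the stages did not overlap. With 2 libraries a stage the smallest two-sided p of an exact permutation test is 0.333, and the share had that p. CC1G_08745 alone held 24.8% and 24.2% of member reads in hyphae and 2.19% and 2.23% in oidia. Without it members took 2.64% and 2.59% of these reads in hyphae and 1.01% and 0.962% in oidia, while the summed level was 16952 and 17557 CPM in hyphae and 18942 and 18535 CPM in oidia. Of the reads of orphan regions that pass the distance rule, members took 19.9% and 20.3% in hyphae and 5.76% and 5.73% in oidia. The rule left out 131 short orphan regions, among them the one with the most reads, on chromosome 6 from 92625 to 93096. It lies 90336 bp from the outermost listed position, and the hyphae libraries had 768627 and 807987 reads there and the oidia libraries 996162 and 834074.

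The 5 highest levels per kb in hyphae belonged to CC1G_08745, CC1G_01131, CC1G_13629, CC1G_06529 and CC1G_13980. CC1G_08745 (chromosome 10, 961501 to 961919) had 5580 and 5610 CPM in hyphae replicates 1 and 2 against 424 and 423 CPM in oidia replicates 1 and 2, a log2 fold change (hyphae over oidia) of 3.72 ± 0.07 (SE). CC1G_06529 (chromosome 12, 1479373 to 1479855) had 1605 and 1702 CPM in hyphae against 16.5 and 21.4 CPM in oidia, with 6.47 ± 0.10 (SE) as log2 fold change. CC1G_13980 (chromosome 2, 2632175 to 2632514) reached 712 and 819 CPM in hyphae against 8.57 and 7.31 CPM in oidia, and its log2 fold change was 6.57 ± 0.12 (SE). These 3 regions were high in both hyphae libraries and low in both oidia libraries, with no overlap. CC1G_01131 (chromosome 2, 1022153 to 1022519) was strong in both stages, at 2319 and 2496 CPM in hyphae against 838 and 762 CPM in oidia (log2 fold change 1.59 ± 0.06, SE), and was among the 5 highest levels of each stage. CC1G_13629 (chromosome 1, 1374358 to 1374537) had 635 and 699 CPM in hyphae against 259 and 178 CPM in oidia, and its direction differs in the gene row of the table, as described at the end.

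The 5 highest levels per kb in oidia were led by CC1G_14462 (chromosome 4, 2836897 to 2836983), which at 86 bp was also 1 of the 3 shortest members. It had 16.9 and 16.9 CPM in hyphae against 2234 and 1686 CPM in oidia, with -6.86 ± 0.09 (SE) as log2 fold change. Its level per kb in oidia averaged 22791 CPM per kb, and the part of reads that only touch the edges of so short an interval was not tested. CC1G_08573 (chromosome 9, 2031366 to 2031814) had 343 and 327 CPM in hyphae against 2337 and 2574 CPM in oidia (log2 fold change -2.87 ± 0.07, SE). CC1G_04070 (chromosome 4, 3270656 to 3271143) had 60.4 and 54.9 CPM in hyphae against 1344 and 1453 CPM in oidia (-4.59 ± 0.08, SE). CC1G_14737 (chromosome 5, 3308680 to 3309220) had 6.10 and 5.62 CPM in hyphae against 1385 and 1540 CPM in oidia, and CC1G_01131 completed the 5. The gene row of CC1G_14737 held far fewer oidia reads, as described at the end. All members named for their level passed edgeR's quasi-likelihood test (largest adjusted p = 2.32e-108).

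**Figure D3:**
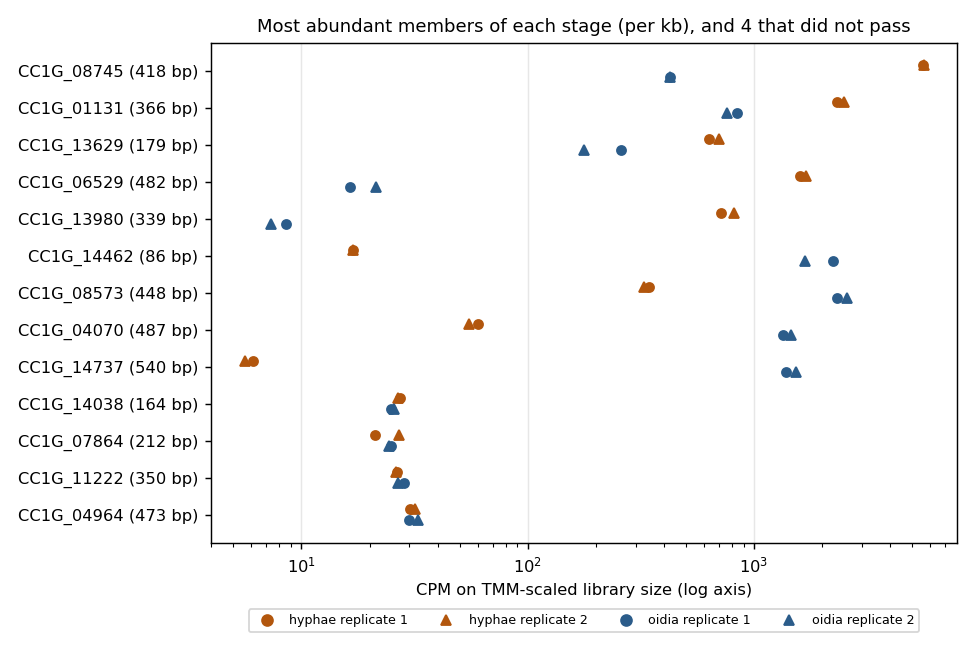
Level in each library in CPM (log axis) of the 9 members with the highest levels per kb in hyphae or oidia and, at the bottom, 4 members that did not pass the test; circles are replicate 1 and triangles replicate 2. The 9 separate by stage without overlap, and the 4 at the bottom lie between 21.2 and 32.6 CPM in all libraries.

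Of the 756 regions 321 had enough reads to test, 375 had reads but too few, and 60 had none. Genes and elements share reads, so the fit covered the 9622 element rows with enough reads, and p-values were adjusted over all of them (Benjamini-Hochberg, threshold 0.05). Among the 321, edgeR's quasi-likelihood test called 281 (87.5%), with 141 higher in hyphae and 140 lower, where 84.1% of all element rows tested were called, 44.1% as higher and 40.0% as lower. The calls split nearly evenly with TMM, but total-count scaling gave 232 higher and 83 lower. Over all 696 members with a read, tested or not, 446 had more TMM-scaled reads in hyphae and 250 had more in oidia. A single read can decide this for sparse members. Among the 280 with at least 50 reads over the 4 libraries, 144 had more in hyphae and 136 had more in oidia. Stages did not overlap in 297 of the 321 (92.5%), against 90.7% of all element rows. The share called was near that background. By the adjusted p of the authors' deposited table, 258 of the 696 members with a read passed, where 52.9% of all element rows with one did.

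Changes of the tested short orphan regions were wide. At least 4-fold changes were called for 176 of the 321 (54.8%), 77 higher in hyphae and 99 lower, against 35.8% of all element rows tested (19.8% higher and 16.0% lower). At least 16-fold changes were called for 66 members (20.6%, against 10.6%) and at least 64-fold changes for 30 (9.35%, against 3.72%). The median absolute log2 fold change was 2.25 in the members, 1.62 in orphan regions of 600 bp to under 2 kb, 1.38 in those of 2 kb or more, 1.24 in orthologous regions under 600 bp and 4.24 in the 113 tested paralogous regions under 600 bp. The median signed log2 fold change was -0.045, with quartiles at -2.57 and 1.92, against 0.12, -1.28 and 1.58 over all element rows. These counts describe the 321 members with enough reads only. Among sparse regions the filter favours those that are high in a stage, so the shares support nothing about all 756. The filter passed 42.5% of the members and 66.3% of all element rows. Its part in the differences from all element rows was not tested. Of the 281 called, 5 had no oidia read and 2 no hyphal read. CC1G_04499 (chromosome 3, 982683 to 983048), with 33 and 27 hyphal reads and none in oidia, and CC1G_06507 (chromosome 12, 1415455 to 1415724), with no hyphal read and 11 and 8 in oidia, were named after their values were seen, and the other 5 follow below.

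**Figure D4:**
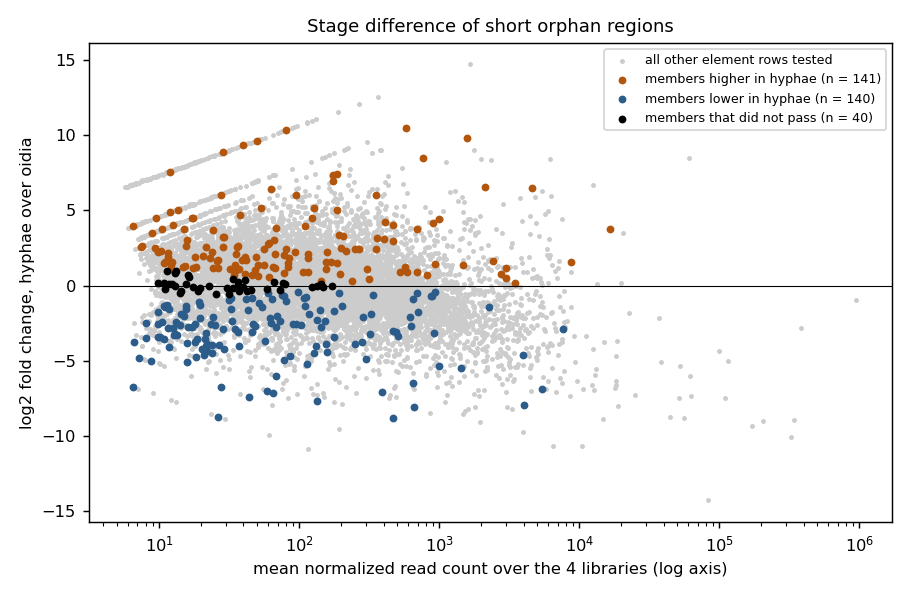
Log2 fold change, hyphae over oidia (vertical axis), against the mean normalized read count over the 4 libraries (log axis) for the tested members, coloured by call, and for all other element rows tested (grey). The 141 members higher in hyphae and the 140 lower spread to both edges of the grey cloud, and the 40 that did not pass lie between -0.56 and 0.97.

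The 8 largest changes towards hyphae were in regions with no oidia read or at most 6. CC1G_02398 (chromosome 3, 3347690 to 3348019) had 236 and 172 reads in hyphae and none in either oidia library, so it was at least 78.1-fold higher, taking 3 oidia reads in all as the floor. CC1G_14127 (chromosome 3, 945022 to 945391) had 82 and 159 hyphal reads and no oidia read, at least 46.1-fold higher. Its hyphae libraries stood apart, at 10.4 and 26.3 CPM. CC1G_05905 (chromosome 7, 2609027 to 2609448) and CC1G_14877 (chromosome 7, 2133206 to 2133429) also had no oidia read and were at least 39.1-fold and 28.0-fold higher.

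Reads were present but scarce in oidia for the other 4. CC1G_03893 (chromosome 2, 2499450 to 2499863) had 580 and 574 CPM in hyphae against 1.13 and 0 CPM in oidia, a ratio of scaled reads of 923 (395 to 2842, exact 95% interval, counting error only). CC1G_07531 (chromosome 6, 1467280 to 1467765) had 2041 and 1778 hyphal reads against 4 and 2 oidia reads, a ratio of 366 (168 to 997). CC1G_04294 (chromosome 2, 1653282 to 1653873) had 532 and 408 hyphal reads against 1 and 2 oidia reads, a ratio of 180 (61.4 to 874). CC1G_14337 (chromosome 4, 720588 to 720905) had 1722 and 1237 hyphal reads against 0 and 1 oidia reads, a ratio of 1699 (305 to 67149). The gene row of CC1G_14337 held far fewer hyphal reads, as described at the end. All 8 were called (largest adjusted p = 7.52e-23, edgeR). Leaving out a library moved some fitted folds by over 1.5 times. The log2 fold change of CC1G_03893 was 9.80, and leaving out oidia replicate 1 or 2 gave 14.72 or 8.96. For CC1G_14337 it was 10.48, and the same 2 omissions gave 9.46 or 13.34. The fits at 14.72 and 13.34 had no oidia read left and are no measured folds. CC1G_14127 had 9.60, and 8.79 without hyphae replicate 2, and CC1G_04294 had 7.41, and 8.09 without oidia replicate 2.

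The 8 largest changes towards oidia lay in regions of 128 to 540 bp. CC1G_15337 (chromosome 10, 1717899 to 1718027) had no hyphal read and 43 and 34 reads in oidia, at least 44.7-fold lower in hyphae. CC1G_01515 (chromosome 10, 148907 to 149104) had 0.382 and 0.331 CPM in hyphae against 182 and 160 CPM in oidia, with -8.81 ± 0.21 (SE) as log2 fold change. CC1G_15243 (chromosome 10, 148249 to 148500), next to it on the chromosome, had 0.763 and 0.992 CPM in hyphae against 255 and 223 CPM in oidia, with -8.08 ± 0.17 (SE) as log2 fold change. The gene model of CC1G_15243 is longer than its interval, and CC1G_01515 meets a second gene model, and whether reads of this pair are separate was not tested.

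CC1G_14737, described above among the highest oidia levels, had -7.95 ± 0.11 (SE) for its interval, which its gene row did not share. CC1G_14784 (chromosome 7, 651122 to 651378) had -7.11 ± 0.18 (SE), with 1.27 and 0.662 CPM in hyphae against 141 and 143 CPM in oidia. The other 3 had 1 to 3 hyphal reads. CC1G_00615 (chromosome 1, 3386027 to 3386221) had 2 and 1 hyphal reads against 220 and 168 oidia reads, and its scaled oidia over hyphae ratio was 225 (76.5 to 1097, exact 95% interval). CC1G_09095 (chromosome 4, 732965 to 733393) had 1 and 0 hyphal reads against 68 and 59 oidia reads, a ratio of 221 (39.0 to 8802). CC1G_02576 (chromosome 4, 134126 to 134485) had 1 and 1 against 106 and 83, a ratio of 165 (44.9 to 1369). All 8 were called (largest adjusted p = 2.68e-26, edgeR). The log2 fold change of CC1G_09095 was -7.40, and became -9.21 without hyphae replicate 1, when no hyphal read was left, and -6.71 without hyphae replicate 2.

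**Figure D5:**
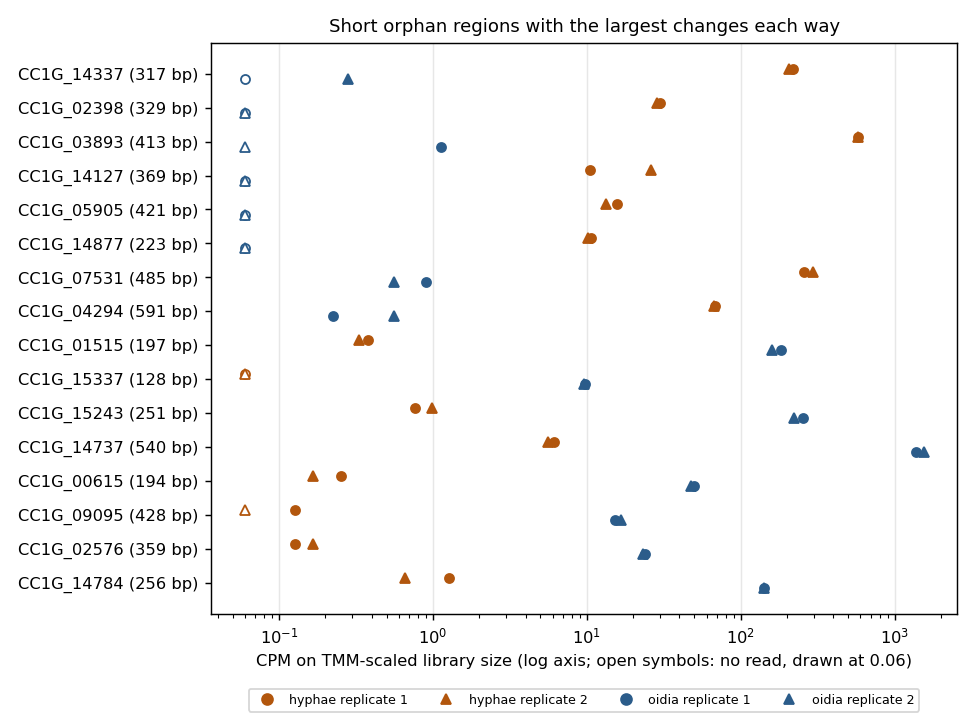
Level in each library in CPM (log axis) of the 8 members with the largest changes towards hyphae (top) and the 8 towards oidia (bottom); circles are replicate 1, triangles replicate 2, and open symbols mark libraries with no read. In the top 8 both oidia libraries lie at or below 1.13 CPM and in the bottom 8 both hyphae libraries at or below 6.10 CPM.

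A further 40 members did not pass the test, with log2 fold changes between -0.56 and 0.97 and a median standard error of 0.32. The 4 of these with the highest level per kb were CC1G_14038 (chromosome 2, 3533449 to 3533613), CC1G_07864 (chromosome 4, 1282611 to 1282823), CC1G_11222 (chromosome 1, 1261302 to 1261652) and CC1G_04964 (chromosome 8, 1695360 to 1695833). CC1G_04964 had 30.3 and 31.9 CPM in hyphae against 29.8 and 32.6 CPM in oidia, with -0.0026 ± 0.14 (SE) as log2 fold change, and the others had 0.10 ± 0.15, -0.045 ± 0.15 and -0.075 ± 0.15 (SE) in the order named. With total-count scaling all 4 passed as higher in hyphae, at 1.54 for CC1G_04964 and 1.64, 1.5 and 1.47 for the others. CC1G_14038 also passed with upper quartiles, at 0.36 (adjusted p = 0.0173, edgeR).

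Among the 4 members in the top 10 of every library, chosen after their values were seen, CC1G_01328 and CC1G_08758 changed least. CC1G_01328 (chromosome 5, 2183819 to 2184394) had 668 and 665 CPM in hyphae against 592 and 602 CPM in oidia, so its log2 fold change was 0.16 ± 0.07 (SE) with an adjusted p of 0.0190 (edgeR). That call was lost with DESeq2 size factors (0.08, adjusted p = 0.246, edgeR) and without either hyphae library (adjusted p = 0.0520 without replicate 1 and 0.0711 without replicate 2, edgeR). It was also lost on its gene row (0.11, adjusted p = 0.0915, edgeR), by DESeq2's Wald test (adjusted p = 0.173) and by the authors' deposited table (adjusted p = 0.272). CC1G_08758 (chromosome 10, 996095 to 996569) had 630 and 658 CPM in hyphae against 479 and 427 CPM in oidia, so its log2 fold change was 0.51 ± 0.07 (SE) with an adjusted p of 1.01e-13 (edgeR).

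Every chromosome held short orphan regions. Their share of the orphan, orthologous and paralogous regions past the distance rule ran from 4.05% on chromosome 5 (49 of 1210) to 9.43% on chromosome 12 (60 of 636). On chromosome 10, picked out after the values were seen, 7 tested members were higher in hyphae and 21 lower, where among all gene regions there past the distance rule, members included, 177 were higher and 188 lower. With total-count scaling the counts were 10 and 20.

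Most members stood alone among their neighbours. Of the 1512 regions on either side of a member, 39.6% were orthologous, 34.0% orphan and 26.4% paralogous, where these classes made up 46.0%, 27.7% and 26.3% of all such regions. Members formed 604 runs of 1, 55 runs of 2, 11 of 3, and 1 run each of 4 and 5. Of 84 pairs of adjacent members both were called in 18, and in 13 of these both had the same direction. The same count was not made for other gene regions, so it shows no trait of the members. The 18 include CC1G_15243 and CC1G_01515, whose reads may not be separate. Some adjacent members lie in the same gene model, such as a pair in CC1G_14339 and a pair in CC1G_14912, and neither pair is among the 18. Over 299 pairs of a tested member and a tested orthologous neighbour, log2 fold changes had a Pearson correlation of 0.351 (Spearman 0.338). The same measure was 0.193 over 1112 pairs for orphan regions of 600 bp to under 2 kb and 0.0990 over 327 pairs for orthologous regions under 600 bp. These pairs come from the same 4 libraries and 1 region can stand in several, so the values describe this genome and carry no test.

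The longest run, on chromosome 10 from 1721624 to 1729042, held 5 members of 152 to 191 bp. CC1G_02133 had 0 and 1 hyphal reads against 41 and 38 oidia reads, and its scaled oidia over hyphae ratio was 138 (24 to 5501, exact 95% interval), and CC1G_02132 had 15 and 3 against 25 and 22. Both were called as lower in hyphae. The log2 fold change of CC1G_02132 was -2.17 ± 0.43 (SE), and became -3.47 without hyphae replicate 1 and -0.64 with total counts (adjusted p = 0.168, edgeR). That of CC1G_02133 was -6.71, and became -5.66 without hyphae replicate 1 and -8.71 without hyphae replicate 2, when no hyphal read was left. CC1G_02134 had no read in any library, CC1G_02135 had 0 and 2 in hyphae only, and CC1G_02130 had 2 and 0 in hyphae against 0 and 1 in oidia.

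The run of 4, on chromosome 3 from 372275 to 375914, held 2 members called as lower in hyphae. CC1G_06047 had 3 and 3 hyphal reads against 16 and 18 oidia reads (log2 fold change -3.24 ± 0.57, SE), and CC1G_14084 had 5 and 6 against 12 and 10 (-1.77 ± 0.56, SE). The call of CC1G_14084 was lost without hyphae replicate 1 (-1.41, adjusted p = 0.180, edgeR) and without hyphae replicate 2 (-2.06, adjusted p = 0.0546, edgeR). CC1G_14083, with 6 and 1 against 6 and 3 reads, and CC1G_06048, with 2 and 2 against 0 and 0, were too sparse to test.

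Neighbours did not always share a direction. On chromosome 1 from 561188 to 564725, CC1G_12060 had 15 and 8 hyphal reads against 30 and 27 oidia reads, with -2.10 ± 0.39 (SE) as log2 fold change. The next member, CC1G_12061, had 37 and 20 hyphal reads against 9 and 4 oidia reads, with 1.32 ± 0.47 (SE). The call of CC1G_12060 was lost with total counts (-0.56, adjusted p = 0.179, edgeR), and that of CC1G_12061 without hyphae replicate 1 (1.06, adjusted p = 0.235, edgeR) and without oidia replicate 2 (0.99, adjusted p = 0.0687, edgeR). CC1G_12059 beside them had no read. Also on chromosome 1, from 3549299 to 3554406, CC1G_00675 and CC1G_00676 were both higher in hyphae, at 1.11 ± 0.11 and 0.70 ± 0.08 (SE), and CC1G_13762 had 2 and 0 hyphal reads against 2 and 4 oidia reads.

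The 2 longest members, both 599 bp, were CC1G_14787 (chromosome 7, 657067 to 657666), with 12 and 4 hyphal reads against 126 and 113 oidia reads, and CC1G_09445 (chromosome 10, 739178 to 739777), with 51 and 43 against 6 and 3. The log2 fold change of CC1G_14787 was -4.68, and -5.41 without hyphae replicate 1. The 2 orphan regions just outside, both 600 bp, were CC1G_14416, with 0 and 2 hyphal reads against 3 and 5 oidia reads, and CC1G_14849, with 5 and 4 against 4 and 0.

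The table also lists each gene under its identifier, and gene and interval counts could be compared. They were equal in all 4 libraries for 398 members. Of the 306 members tested in both forms 290 had the same call and 1 the opposite one. Among the 211 members with at least 100 reads, the gene row held over 1.5 times the reads of the interval in 18, all with a longer gene model. It held less than the interval reads divided by 1.5 in 15, of which 9 met a second gene model. The gap was over 10-fold in 4 members with 1000 reads or more. CC1G_14737 had 39 and 28 hyphal reads against 9 and 13 oidia reads as a gene, where its interval held 48 and 34 against 6138 and 5479, and its log2 fold change was 0.80 as a gene (adjusted p = 0.0546, edgeR). CC1G_13629 had 0 and 0 against 67 and 45 as a gene, where the interval held 4996 and 4228 against 1150 and 633, so the direction turned, with a log2 fold change of 1.60 ± 0.07 (SE) for the interval and -9.26 for the gene row, which had no hyphal read. CC1G_14337 had 124 and 79 against 0 and 1 as a gene, and a log2 fold change of 6.62. CC1G_13781 (chromosome 1, 3752855 to 3753211) had 2 and 1 against 9 and 18 as a gene, where the interval held 254 and 211 against 1397 and 1037. How reads that overlap several features were counted is not stated in the labels, headers or notes, so which of the 2 rows counts the transcript of these 4 members cannot be told, and their levels and directions given above hold for the interval only.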

How the data were processed

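The 4 libraries, 2 of hyphae and 2 of oidia, were grouped by title. TopHat, Bowtie 0.12.7 and DESeq are named in the submitters' processing notes. Genome build, counter, strand setting and treatment of multimapped reads are not given in sources used here. Per the file headers and the notes that come with them, the authors deposited a read count per row and library, which was used here, a mean signal per stage, a ratio of these means and its log2 (both unused), and DESeq p-values (adjusted p used as an alternative). Coordinates were parsed from the row names.

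The test on element rows used edgeR 4.0.16 under R 4.3.3 (quasi-likelihood, filterByExpr on scaled sizes, Benjamini-Hochberg), with TMM factors from the gene rows. Libraries of a stage were not copies of each other (chi-square over degrees of freedom 1.28 in hyphae and 3.44 in oidia). The spread behind each p-value is that between libraries, which may be technical. Standard errors are approximate, taken from the F statistic. Exact (Clopper-Pearson) intervals and floors cover counting error alone, as reads are not independent molecules. The fit was tried on simulated element rows, with 50 rows changed at each fold. It recovered 52% at 1.5-fold, 72% at 2-fold, 96% at 4-fold and 98% at 8-fold, with 4 false calls among 163. The simulation gave every row the same spread and changed far fewer rows than were called here, so these rates need not hold for these data.

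Members and lists were chosen with earlier results of these data known. Regions named are the 8 largest changes each way (adjusted p under 0.05, mean of at least 20 normalized counts, no overlap), the 5 highest levels per stage, the 4 highest among those not called, those at the length limit, and the 4 longest runs of adjacent members. Alternatives were other scalings, filters, DESeq2 1.42.0, a replicate block, left-out libraries and other member limits. The filter on unscaled sizes and the gene rows were added after the data were seen.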

Additional observations from a re-analysis of the deposited data

How the results depend on the processing

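The count of 281 called members, of 321 tested, stayed within 1.5 times under every alternative except a mean count of at least 100. That limit left 107 to test and 102 called (59 higher in hyphae, 43 lower, 62 at least 4-fold). The number tested moved as well, so the share called was not stable. With no low-count filter 320 of 696 were called. Total counts gave 232 higher and 83 lower. DESeq2's Wald test called 238 of 321. The test on gene rows called 269 of 309, where 84.0% of all gene rows tested were called. The adjusted p of the authors' deposited table passed 258 of 696, where 52.9% of all element rows with a read passed. For the other alternatives the share called over all element rows was not counted. Without each library in turn the count was 250 to 282, 124 to 150 higher and 126 to 134 lower, with 176 to 189 at least 4-fold and a median log2 fold change of -0.056 to 0.21. That median, -0.045 with all libraries, is small and its sign is not stable: it was -0.12 with DESeq2 size factors, 0.33 with upper quartiles, 2.06 with total counts, 1.18 with no low-count filter, 0.70 with the mean count minimum of 100, 0.52 with the filter on unscaled sizes, -0.14 on gene rows, and 0.10 and 0.030 with length limits of 500 and 700 bp. The share of all orphan-region reads in members, 9.65% in hyphae and 3.31% in oidia, was 7.72% and 2.29% at 500 bp, 11.6% and 5.47% at 700 bp, and 58.5% and 43.1% with no distance limit, which lets in the chromosome 6 region. Without that limit the median level was 1.43 CPM per kb in hyphae and 0.868 in oidia, against 1.68 and 1.04. Regions with at least 10 reads over the stage numbered 370 in hyphae and 300 in oidia. Among the named members that were called, directions turned on gene rows for CC1G_14737 (0.80, adjusted p = 0.0546, edgeR) and CC1G_13629 (-9.26). CC1G_09370, not named above, was called as lower on its interval (-0.85) and had 0.23 on its gene row (adjusted p = 0.634, edgeR). The cause was not tested. With total counts CC1G_07864 (1.5), CC1G_11222 (1.47) and CC1G_04964 (1.54) left their values near 0. They had not been called and had no direction to turn, and that scaling moves the median of all element rows by a like amount, to 1.79. With the replicate number as a block 277 of 321 members were called, 139 higher and 138 lower. Same-numbered libraries did not deviate together (correlation -0.01 over 9866 genes). That gives no sign of a pairing by number, but 2 libraries a stage cannot exclude one. Depth limits the rest: 375 members with reads could not be tested.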
